A study of Homo sapiens with 6 samples.

Results

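The genes described here encode 4 families of enzymes that handle drugs and other foreign compounds: the cytochromes P450 (CYP), the UDP-glucuronosyltransferases (UGT), the glutathione S-transferases with their membrane-bound relatives (GST and MGST) and the sulfotransferases (SULT). Members were all protein-coding rows of the count table whose symbol starts with one of these family names followed by a number or a class letter, with the cholesterol synthesis enzyme CYP51A1 left out. The rule found 87 members among 31831 genes, of which 17551 are protein-coding. They comprise 44 CYP, 15 UGT, 17 GST or MGST and 11 SULT genes.

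RNA-seq was carried out in HK-2 cells, an immortalised line from human proximal tubule epithelium, to ask how overexpression of hnRNP-F, an RNA-binding splicing regulator, alters gene expression under high glucose. HG-NC cells carried an empty vector and HG-OE cells an hnRNP-F vector, and cells of both groups were grown with 30 mM glucose for 72 h. There were 3 libraries per group. The study's methods describe lentiviral delivery, whereas the labels of the control libraries name a plasmid, and no group without a vector or with normal glucose was used here. The paper calls the replicates biological, and the labels do not say whether they came from separate cultures. The p-values then measure the spread between these libraries, which may be technical.

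CYP enzymes oxidise lipophilic compounds (phase I), using electrons passed on by the reductase POR. UGT, GST and SULT enzymes then attach glucuronic acid, glutathione or sulfate (phase II), which makes the products more soluble and ready for export by transporters. Many family members work mainly on the body's own sterols, vitamin D, retinoids, fatty acids or steroids, and in the kidney the proximal tubule is the main site of drug conjugation.

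Totals were 25507595 to 29444841 counts per library. HNRNPF, the overexpressed gene, measured 304, 319 and 311 CPM (counts per 1000000, scaled by the trimmed mean of M values, TMM) in HG-NC, and 430.5, 452 and 423 CPM in HG-OE. All HG-OE libraries lay above all HG-NC libraries, with a log2 fold change of 0.48 ± 0.039 (SE) and an edgeR adjusted p of 2.80e-07, and counts cannot separate the vector's transcripts from the cell's own. Of 22 proximal tubule markers measured, 11 or 12 had at least 10 counts in the libraries other than HG-OE replicate 3, which had 17. The endocytic receptor LRP2 and the regulator HNF4A had 0 counts in those 5 libraries, while the kidney lineage factor PAX8 had 11953 to 18291 counts in the 6 libraries. HG-OE replicate 3 stood apart: 544 of 16016 genes with at least 20 counts there (3.40%) had at least 3 times the mean CPM of HG-OE replicates 1 and 2, against 5 to 16 genes in each other library measured in the same way against its own group. Values with and without it are therefore given.

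Before the expression values, short promoter stretches are shown for members whose level differed between groups and whose promoter holds the core letters bound by the factors best known for inducing these families. The aryl hydrocarbon receptor binds elements with the core GCGTG, and NRF2 (gene NFE2L2) binds antioxidant response elements with the core TGACNNNGC. Both strands were searched in 250 bases before to 50 bases after the RefSeq start of each gene (GRCh38.p14), and 66 of the 87 members had an entry. Capitals mark the core as it reads on the gene's strand, so that a core on the opposite strand appears as its reverse complement (UGT8, CYP4F11). The CYP1A1 window lies at chr15:74725568-74725597 on the minus strand, the SULT2B1 windows at chr19:48551941-48551970 and chr19:48552070-48552099 on the plus strand, and the UGT8 windows at chr4:114598266-114598295 and chr4:114598346-114598375 on the plus strand.
CYP1A1: ccagggaaggagGCGTGgccacacgtacaa
SULT2B1 distal: cggaaggttctgGCGTGggcttggcactga
SULT2B1 proximal: ccgctgttggagGCGTGggtagcagctggg
UGT8 distal: gcgcgacatcaaCACGCagagctcactgag
UGT8 proximal: aagggcgcgggaCACGCctcgcaaagaggg

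For the antioxidant response element, the GSTP1 window lies at chr11:67583736-67583765 on the plus strand, the GSTO1 windows at chr10:104254656-104254685 and chr10:104254721-104254750 on the plus strand, and the CYP4F11 window at chr19:15935004-15935033 on the minus strand.
GSTP1: gccggcgccgTGACTCAGCactggggcgga
GSTO1 distal: ggcggagggaTGACTGAGCatttataactt
GSTO1 proximal: cgagatgcttTGACACAGCcccttaagatg
CYP4F11: ctgtgcccatGCTGTGTCAccctgagctgg

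The aryl hydrocarbon receptor core was present in 19 of the 66 members with a promoter entry (28.79%), against 36.33% of 27305 promoters searched in the same way. The antioxidant core was present in 10 of 66 (15.15%), against 13.56% of all promoters. The promoters shown belong to members that were higher in HG-OE (CYP1A1, SULT2B1, GSTP1, GSTO1) and to members that were lower (UGT8, CYP4F11). CYP11A1, CYP2U1 and SULT1C2, whose levels also differed, hold a core as well and are not shown. A match describes the letters only, and binding was not measured here.

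The highest levels in HK-2 cells were those of a few GST and MGST genes and UGT2B7, whereas the most abundant SULT and CYP genes, SULT4A1 and CYP2R1, were alike per length at mean FPKM values of 3.33 and 3.31 in HG-NC. On the authors' FPKM scale (fragments per kilobase of gene, scaled to library size), 25 of 87 members had a mean of at least 1 over the 6 libraries, and the 7 members with at least 10 were 6 GST or MGST genes and UGT2B7. Counts of at least 10 were found in every library for 34 members, in some libraries for 19 and in none for another 34. GSTP1 alone made up 49.8% of the summed GST and MGST level in HG-NC, and UGT2B7 87.3% of the summed UGT level. The order of levels in HG-NC ran from GSTP1 (mean FPKM 147) through GSTO1 (82.3), UGT2B7 (48.3), MGST1 (17.5), GSTM3 (15.8), MGST3 (13.5) and GSTK1 (9.92) to UGT8 (6.84). No neighbours in this order overlapped over the HG-NC libraries, the closest being MGST1 at 17.3 to 17.7 and GSTM3 at 15.4 to 16.4. Below CYP2R1, the next CYP genes, CYP2S1, CYP1B1 and CYP24A1, had 2.69, 2.41 and 2.28, each overlapping the next in its libraries.

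**Figure D1:**
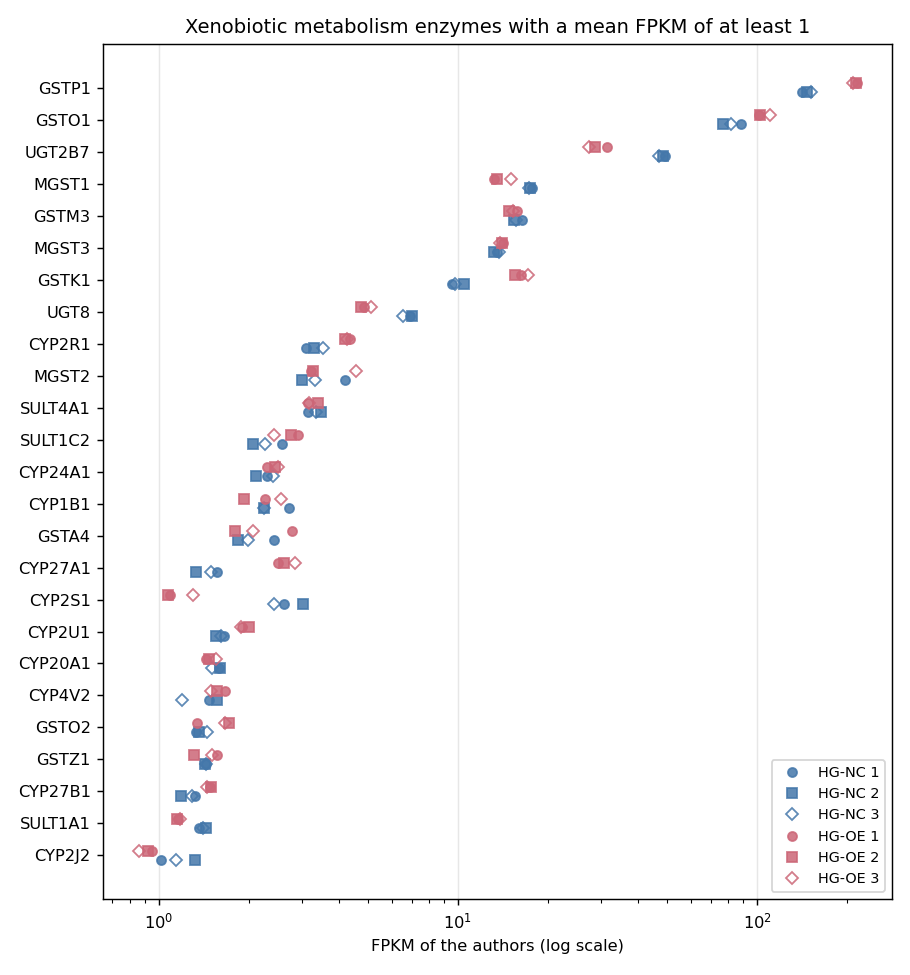
FPKM of the 25 members with a mean of at least 1, on a log axis, with 1 symbol per library (blue HG-NC, red HG-OE, open diamonds replicate 3). GST, MGST and UGT2B7 fill the upper rows, and no CYP gene reaches a mean of 10.

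Many enzymes that define drug metabolism in liver were near or at 0. CYP2C8, CYP2C19, CYP2A6 and CYP3A7 had at most 5 counts in any library, and GSTA1, the main alpha-class transferase of proximal tubule and liver, had 0 or 1. CYP3A4 was low but present, with 7, 17 and 31 counts in HG-NC and 13, 9 and 11 in HG-OE (edgeR adjusted p = 0.144). A count of 0 allows up to 3 counts, or 0.102 to 0.118 CPM in these libraries (counting error only). Among the 34 members under 10 counts everywhere were also the steroid enzymes CYP19A1 and CYP21A2, the glucuronosyltransferases UGT1A4, UGT2B15 and UGT2B17 and the estrogen sulfotransferase SULT1E1. In these bulk libraries, fewer expressing cells and less RNA per cell cannot be told apart.

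The comparison of HG-OE with HG-NC was made with edgeR's quasi-likelihood test over 17142 genes that passed a filter on low counts. The filter kept 39 members: 22 CYP, 2 UGT, 10 GST or MGST and 5 SULT. A gene counts as called where its adjusted p is under 0.05 and its level differs at least 2-fold. Of the 39 tested members, 20 (51.3%) were past an adjusted p of 0.05, with 12 higher and 8 lower in HG-OE, against 51.8% of all tested genes (25.9% higher and 25.9% lower) and 58.3% of tested protein-coding genes. Of the 39, 7 were called, with 4 higher and 3 lower, against 5.82% of all tested genes (3.69% higher and 2.13% lower) and 5.11% of protein-coding ones. Libraries of the groups did not overlap for 24 of 39 members, against 59.0% of all tested genes. The shares past the adjusted p and without overlap were near the background. The median log2 fold change was 0.088 in members and 0.011 over all tested genes. CYP11A1 and SULT2B1 had under 10 counts in every HG-NC library, so they entered the test through the group where they were high. CYP4F11, called lower, had 7, 16 and 14 counts in HG-OE, so its place in the test leaned on HG-NC, where it was higher. The other members called higher, CYP1A1 and CYP26B1, were under 2-fold without HG-OE replicate 3. The called counts therefore support no statement about the members as a set.

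**Figure D2:**
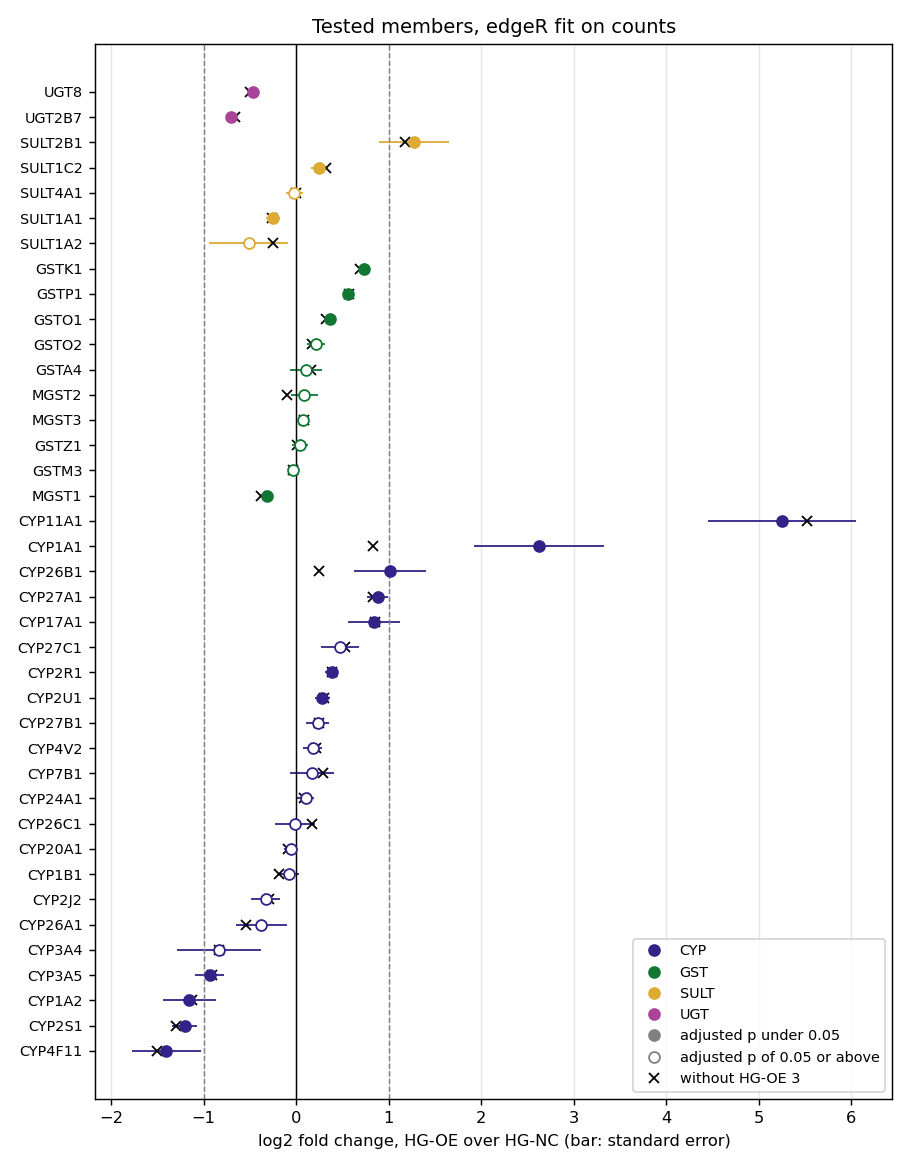
Log2 fold change of HG-OE over HG-NC for the 39 tested members with standard errors. Filled points have an adjusted p under 0.05, dashed lines mark 2-fold, and crosses give the value without HG-OE replicate 3. Only for CYP1A1 and CYP26B1 does the cross lie far from the point.

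Of the 10 tested GST and MGST genes, 3 were higher, 1 was lower and 6 did not reach an adjusted p under 0.05, so that 40% were past it against 51.8% of all tested genes. GSTP1, the pi-class cytosolic transferase (ENSG00000084207.18, chr11:67583742-67586656), measured 279, 289.6 and 298 CPM in the HG-NC libraries and 426, 431 and 418 CPM in the HG-OE libraries. The groups did not overlap, and the log2 fold change was 0.56 ± 0.038 (SE, edgeR adjusted p = 6.81e-08), or 0.36 after the median of genes within 10 Mb was subtracted. GSTK1, the kappa-class transferase of mitochondria and peroxisomes, measured 45.1, 49.3 and 45.9 CPM in the HG-NC libraries and 76.9, 74.5 and 81.9 CPM in the HG-OE libraries. It had the largest log2 fold change of the 10 tested, at 0.73 ± 0.053 (SE, edgeR adjusted p = 1.13e-07).

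GSTO1, an omega-class enzyme that reduces dehydroascorbate and mixed disulfides, measured 167, 145.5 and 154 CPM in the HG-NC libraries and 193, 197 and 211 CPM in the HG-OE libraries. All HG-OE libraries were higher, and the log2 fold change was 0.37 ± 0.052 (SE, edgeR adjusted p = 5.49e-05). Its neighbour and paralog GSTO2 had an edgeR adjusted p of 0.0872 at 0.21 ± 0.097 (SE). MGST1, a membrane-bound transferase that also reduces lipid peroxides, was the only member of this family with an adjusted p under 0.05 that was lower in HG-OE. It measured 148, 145 and 143 CPM in the HG-NC libraries and 110.2, 114 and 127 CPM in the HG-OE libraries, without overlap, and fell by 0.31 on the log2 scale (SE 0.050, edgeR adjusted p = 1.38e-04). Among the 6 not past the threshold, GSTM3 and MGST3 had means of 83.9 ± 3.06 and 121 ± 2.19 CPM in HG-NC and 81.9 ± 1.87 and 128 ± 1.33 CPM in HG-OE (SD, n = 3). MGST3, GSTA4, MGST2 and GSTZ1 had log2 fold changes between 0.036 and 0.10, and that of MGST2 was -0.096 without HG-OE replicate 3. Other single libraries left out gave values down to -0.092 for GSTA4 and -0.012 for GSTZ1.

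Both tested UGT genes fell past an adjusted p of 0.05, as did 25.9% of all tested genes. Of the 2, only UGT2B7 encodes a glucuronosyltransferase. UGT2B7, the main renal enzyme for glucuronidation of opioids and anti-inflammatory drugs (ENSG00000171234.14, chr4:69051363-69112987), measured 125, 123 and 119 CPM in the HG-NC libraries and 80.1, 73.8 and 70.3 CPM in the HG-OE libraries. The groups were far apart, and UGT2B7 fell by 0.71 on the log2 scale (SE 0.050, edgeR adjusted p = 8.82e-08). UGT8, which adds galactose to ceramide in the synthesis of myelin-type lipids and uses no glucuronic acid, measured 34.0, 34.6 and 32.0 CPM in the HG-NC libraries and 23.9, 23.6 and 25.3 CPM in the HG-OE libraries. It fell by 0.47 on the log2 scale (SE 0.059, edgeR adjusted p = 1.90e-05). Both genes lie on chromosome 4, where the median log2 fold change of 460 genes with a mean of at least 100 counts was -0.26. The median of such genes within 10 Mb was -0.31 beside UGT2B7 and -0.28 beside UGT8, and the part of this regional shift in the falls was not tested beyond subtracting it, which left log2 fold changes of -0.40 and -0.19. The other 13 UGT genes were not tested, and none had 10 counts in a library other than HG-OE replicate 3.

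**Figure D3:**
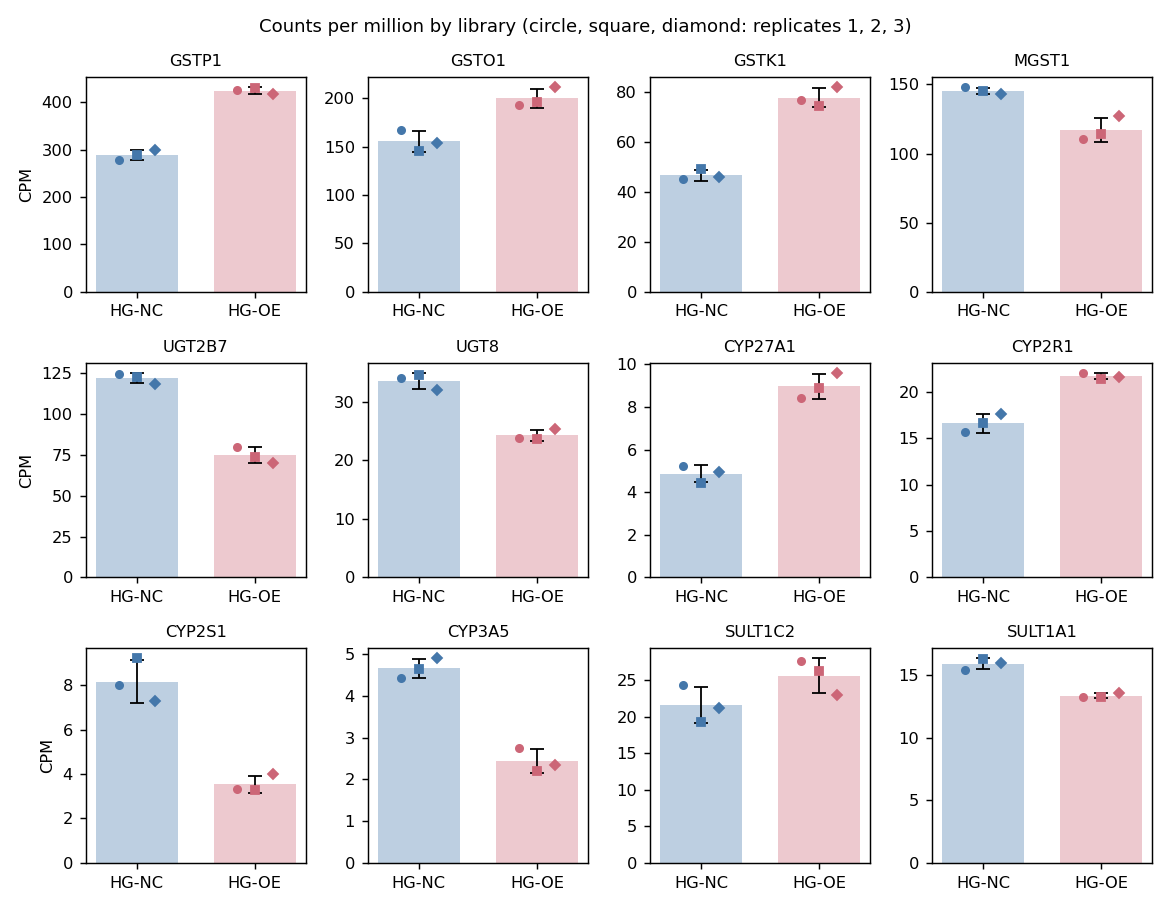
CPM of 12 members past an adjusted p of 0.05, by library. Bars are group means of 3 libraries, whiskers the SD, and circles, squares and diamonds mark replicates 1, 2 and 3. In each panel but that of SULT1C2 the libraries of the groups are separate, which the choice of members past the threshold favours. Over all tested genes, 59.0% were separate.

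Of 12 tested CYP genes listed under sterols and vitamins, the orphan CYP20A1 among them, 5 were higher, 0 were lower and 7 did not reach an adjusted p under 0.05. The share past it was 41.7%, against 51.8% of all tested genes, and the 5 include CYP26B1, which rested on 1 library, and CYP11A1, which passed the filter through HG-OE alone. CYP27A1, the mitochondrial sterol hydroxylase that starts the acidic pathway of bile acid synthesis, measured 5.23, 4.43 and 4.94 CPM in the HG-NC libraries and 8.41, 8.90 and 9.59 CPM in the HG-OE libraries. The log2 fold change was 0.88 ± 0.12 (SE, edgeR adjusted p = 2.51e-05), while 67 genes within 10 Mb on chromosome 2 had a median of -0.20. CYP2R1, which carries out the first hydroxylation of vitamin D, measured 15.6, 16.6 and 17.6 CPM in the HG-NC libraries and 22.0, 21.4 and 21.6 CPM in the HG-OE libraries, with a log2 fold change of 0.38 ± 0.072 (SE, edgeR adjusted p = 5.11e-04).

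The enzymes of the later steps of vitamin D handling did not pass the test. CYP24A1, which inactivates the hormone, measured 10.3, 9.46 and 10.7 CPM in the HG-NC libraries and 10.3, 11.1 and 11.3 CPM in the HG-OE libraries (log2 fold change 0.10 ± 0.094, SE, edgeR adjusted p = 0.376). CYP27B1, which activates it in the proximal tubule, had a mean of 4.65 ± 0.27 CPM in HG-NC against 5.47 ± 0.087 CPM in HG-OE (SD, n = 3, edgeR adjusted p = 0.130).

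CYP11A1, the mitochondrial enzyme that cleaves the cholesterol side chain as the first step of steroid synthesis (ENSG00000140459.18, chr15:74337759-74367646), was almost absent in HG-NC with 1, 0 and 0 counts. HG-OE replicates had 21, 24 and 11 counts. The pooled level was 51.5 times that of HG-NC, with a 95% counting interval of 8.88 to 2071. It passed the filter through HG-OE alone, so its place among the called members adds nothing to these counts. The highest level, in HG-OE replicate 2, was only 0.82 CPM. CYP17A1, the steroid hydroxylase and lyase of a later step, had 18, 17 and 16 counts in HG-NC and 39, 28 and 33 in HG-OE, which gave a log2 fold change of 0.84 ± 0.28 (SE, edgeR adjusted p = 0.0211), and was named after its values were seen. The edgeR adjusted p of CYP17A1 was 0.0659 without the low-count filter, and its DESeq2 adjusted p was 0.145.

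CYP26B1, which breaks down retinoic acid, had 29, 42 and 41 counts in HG-NC and 52, 44 and 150 in HG-OE. HG-OE replicate 2 lay close to HG-NC replicates 2 and 3, and the groups overlapped in CPM. The log2 fold change of 1.01 ± 0.38 (SE, edgeR adjusted p = 0.0401) rested on HG-OE replicate 3: without it the value was 0.25 with an edgeR adjusted p of 0.436. Leaving out HG-NC replicate 1, 2 or 3 also ended the call, with edgeR adjusted p-values of 0.151, 0.0900 and 0.0939.

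Of 17 CYP genes known chiefly for oxidising foreign compounds 6 were tested, of which 3 were lower, 1 was higher and 2 did not reach an adjusted p under 0.05. The share past it was 66.7% of these few genes, against 51.8% of all tested genes. CYP2S1, an enzyme of epithelia outside the liver (ENSG00000167600.14, chr19:41193210-41207539), measured 7.98, 9.20 and 7.30 CPM in the HG-NC libraries and 3.31, 3.30 and 3.99 CPM in the HG-OE libraries. It fell by 1.21 on the log2 scale (SE 0.14, edgeR adjusted p = 6.66e-06) without overlap between the groups, and was the most abundant called member. CYP3A5, the CYP3A enzyme best known in kidney, had 113, 126 and 137 counts in HG-NC and 80, 64 and 69 in HG-OE. It fell by 0.94 on the log2 scale (SE 0.15, edgeR adjusted p = 1.72e-04), just short of 2-fold, and was named after its values were seen.

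CYP1A2, the hepatic caffeine-oxidising enzyme, had 29, 38 and 55 counts in HG-NC and 23, 17 and 19 in HG-OE. It fell by 1.15 on the log2 scale (SE 0.29, edgeR adjusted p = 0.00426), and by 0.91 without HG-NC replicate 3, which ended the 2-fold call. Its neighbour CYP1A1, the enzyme induced by aryl hydrocarbons, went the other way. It had 31, 19 and 22 counts in HG-NC and 46, 47 and 395 in HG-OE. The log2 fold change was 2.63 ± 0.70 (SE, edgeR adjusted p = 0.00648), and 0.83 with an edgeR adjusted p of 0.0145 without HG-OE replicate 3, so the direction held in the other libraries and the 2-fold call did not. CYP1B1, which oxidises estrogens and aryl hydrocarbons, had overlapping libraries of 14.9 to 18.3 CPM in HG-NC against 13.1 to 17.4 CPM in HG-OE (edgeR adjusted p = 0.577).

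Among 4 tested CYP genes of fatty acid oxidation, 1 was higher and 1 lower, so that 50% were past the adjusted p against 51.8% of all tested genes. CYP4F11, a hydroxylase of long-chain fatty acids and vitamin K, had 29, 20 and 42 counts in HG-NC and 7, 16 and 14 in HG-OE, and fell by 1.41 on the log2 scale (SE 0.37, edgeR adjusted p = 0.00611). Its place in the test leaned on HG-NC, where it was higher, so its call adds nothing to these counts. CYP2U1, a hydroxylase of arachidonic acid and related fatty acids, measured 10.9, 10.3 and 10.6 CPM in the HG-NC libraries and 12.6, 13.4 and 12.6 CPM in the HG-OE libraries, with a log2 fold change of 0.28 ± 0.085 (SE, edgeR adjusted p = 0.0126). Without HG-OE replicate 2 the edgeR adjusted p of CYP2U1 was 0.0576, and its log2 fold change was 0.58 after the median of genes within 10 Mb was subtracted.

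Of 5 tested sulfotransferases, 2 were higher and 1 was lower, so that 60% were past the adjusted p against 51.8% of all tested genes. SULT2B1, which sulfates cholesterol and oxysterols, had 5, 7 and 8 counts in HG-NC and 18, 15 and 20 in HG-OE, which gave a log2 fold change of 1.27 ± 0.38 (SE, edgeR adjusted p = 0.0126). It passed the filter through HG-OE alone, so its place among the higher members adds nothing to these counts. SULT1C2, a kidney-expressed member with affinity for small phenols, measured 24.3, 19.4 and 21.3 CPM in the HG-NC libraries and 27.6, 26.3 and 23.0 CPM in the HG-OE libraries, with overlapping groups and a log2 fold change of 0.25 ± 0.089 (SE, edgeR adjusted p = 0.0318). When HG-NC replicate 2, HG-NC replicate 3, HG-OE replicate 1 or HG-OE replicate 2 was left out, its edgeR adjusted p was 0.0938 to 0.165. SULT1A1, the main phenol sulfotransferase, measured 15.5, 16.3 and 15.96 CPM in the HG-NC libraries and 13.3, 13.3 and 13.6 CPM in the HG-OE libraries. It fell by 0.25 on the log2 scale (SE 0.076, edgeR adjusted p = 0.0128), and subtracting the median of genes within 10 Mb gave -0.38 for SULT1A1 and 0.55 for SULT1C2. SULT4A1, the most abundant sulfotransferase per length and known from brain, had 10.1 to 11.2 CPM in HG-NC against 10.1 to 11.1 CPM in HG-OE (log2 fold change -0.020 ± 0.092, SE, edgeR adjusted p = 0.873, and -0.34 after the same subtraction).

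Summed over each family, the GST and MGST level was 889 ± 12.6 CPM in HG-NC against 1081 ± 20.1 CPM in HG-OE (SD, n = 3), a ratio of 1.22. The UGT sum was 156 ± 4.10 CPM in HG-NC against 101 ± 3.33 CPM in HG-OE, a ratio of 0.649. CYP genes summed to 130.1, 128 and 126 CPM across HG-NC and to 134, 133 and 156 CPM across HG-OE, so that the rise of this sum lay mostly in HG-OE replicate 3. SULT genes summed to 50.7, 47.8 and 48.8 CPM in HG-NC, below the 52.0, 51.8 and 51.4 CPM of HG-OE. The members that led each sum set its value, and no test was made of the sums.

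**Figure D4:**
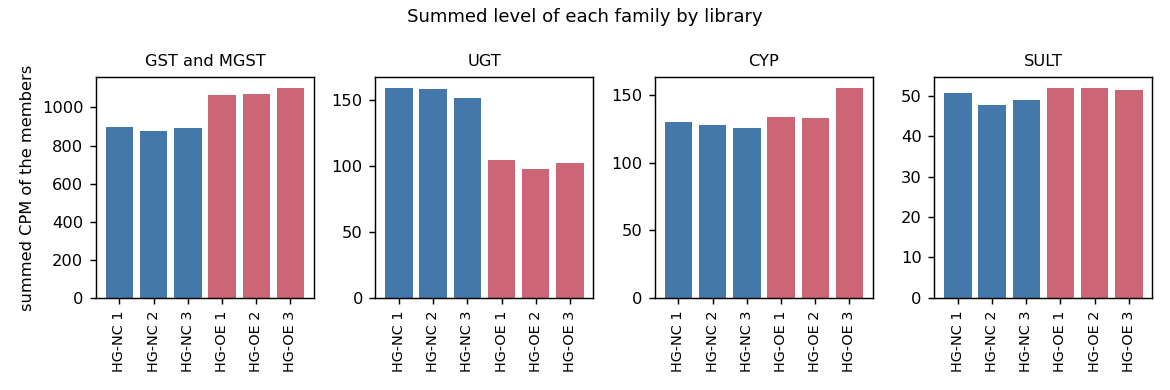
Summed CPM of the members of each family in each library, blue HG-NC and red HG-OE, with an axis from 0 in each panel. GST and MGST were higher and UGT lower in all 3 HG-OE libraries, and the CYP sum was highest in HG-OE replicate 3.

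HG-OE replicate 3 held transcripts of members that the other libraries almost lacked. Of 40 members with at least 20 counts there, 8 had at least 3 times the mean CPM of HG-OE replicates 1 and 2, against 3.40% of all genes with such counts. No member stood apart in this way in any other library, where only 0.033% to 0.10% of all genes did. Besides CYP1A1 and CYP26B1, the 8 members were UGT1A8, SULT2A1, GSTM4, CYP2B6, GSTM1 and SULT1C4. UGT1A8, a glucuronosyltransferase of the gut, had 0, 1 and 9 counts in HG-NC and 1, 1 and 128 in HG-OE, which puts HG-OE replicate 3 at 127 times the other HG-OE libraries (95% counting interval 34.4 to 1060.1). SULT2A1, the liver and adrenal enzyme that sulfates steroids and bile acids, had 0, 0 and 1 counts in HG-NC and 0, 0 and 72 in HG-OE, so that replicate 3 was at least 23.8-fold higher than the other HG-OE libraries, taken at the 3 counts per library that a 0 allows. Genes of the UGT1A cluster share exons, so the split of reads between them is uncertain.

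CYP2B6, which oxidises bupropion and other drugs, had 2, 1 and 1 counts in HG-NC and 0, 2 and 51 in HG-OE, and SULT1C4 had 1, 0 and 0 in HG-NC and 0, 1 and 25 in HG-OE. The mu-class transferase GSTM4 had 4, 4 and 0 counts in HG-NC and 1, 3 and 60 in HG-OE. GSTM1, of the same class, had 1, 3 and 11 counts in HG-NC and 0, 0 and 39 in HG-OE, at least 12.9-fold higher in HG-OE replicate 3 by the same limit, and HG-NC replicate 3 also exceeded the other HG-NC libraries. These paralogs are near-identical, which leaves their counts uncertain. None of these 6 entered the test, and in each of them HG-OE replicates 1 and 2 stayed at 3 counts or fewer.

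Of the 48 members not tested, 26 had their highest count in HG-OE replicate 3, and 11 reached 10 counts there and in no other library, among them CYP2D6, UGT1A1, UGT1A10 and UGT2B4. Over all genes this library also had the most with a count, 26423 against 24342 to 25012 in each other library. The same share over all untested genes was not computed, so these numbers cannot be called particular to the members. CYP2E1, the ethanol-oxidising enzyme, had 2, 0 and 16 counts in HG-NC and 2, 3 and 10 in HG-OE. The untested members summed to 49 to 57 counts in HG-NC replicates 1 and 2 and HG-OE replicates 1 and 2, to 110 in HG-NC replicate 3 and to 554 in HG-OE replicate 3.

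Markers of other cell types moved with these members. Of 23 hepatocyte markers, 21 had at least 10 counts in HG-OE replicate 3, 13 in HG-NC replicate 3 and 2 or 3 in each other library. Their summed level was 888 CPM in HG-OE replicate 3, 462 and 464 CPM in the other HG-OE libraries and 267 to 278 CPM in HG-NC. SERPINA1 alone had 457 and 458 CPM in HG-OE replicates 1 and 2 and 258 to 275 CPM in HG-NC, and made up most of the sum in these libraries. Albumin (ALB) had 4, 1 and 78 counts in HG-NC and 0, 1 and 4359 in HG-OE, and APOB had 5, 0 and 53 in HG-NC and 0, 0 and 1583 in HG-OE. Of 22 squamous epithelium markers measured, 18 had at least 10 counts in HG-OE replicate 3 and 4 to 6 in each other library. The summed level was 319 CPM there, 222 and 228 CPM in the other HG-OE libraries and 146 to 156 CPM in HG-NC. In HG-OE replicates 1 and 2 the higher sum came from S100A2, at 165 and 164 CPM against 58.3 to 62.1 CPM in HG-NC. KRT10 went the other way, with 48.7 and 47.4 CPM in these 2 libraries against 73.5 to 78.5 CPM in HG-NC. The keratin KRT17 had 724 counts in HG-OE replicate 3 and at most 1 elsewhere, while KRT5 and KRT6A were at 0 in the other 5 libraries. Of 10 fibroblast markers, 6 had at least 10 counts in HG-OE replicate 3 and 3 or 4 in each other library, with sums of 33.4 to 43.7 CPM. Only COL1A2 among them stood apart in HG-OE replicate 3, with 141 counts there and 0 in the other 5 libraries. The part of these markers in the members' values was not tested.

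**Figure D5:**
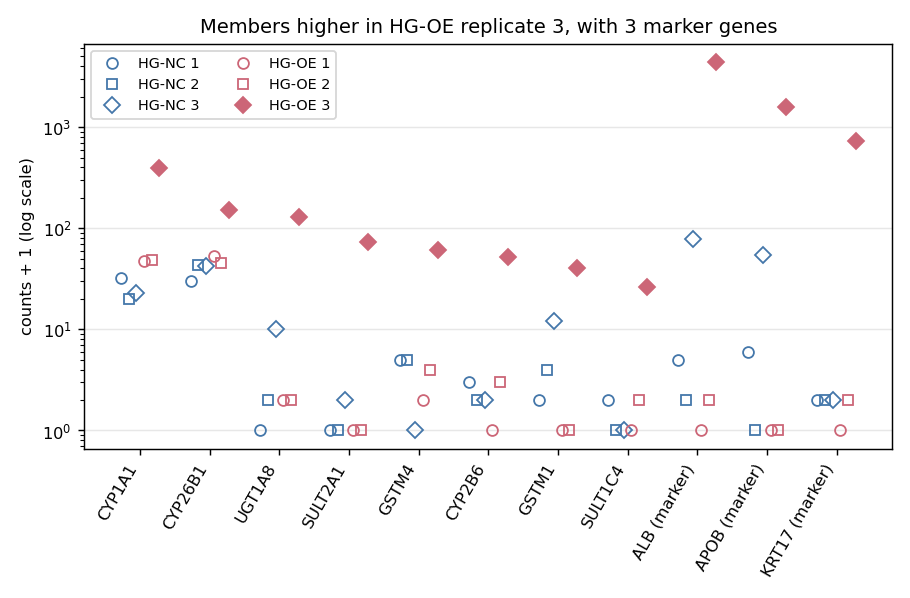
Counts plus 1, on a log axis, of the 8 members that stood apart in HG-OE replicate 3 (filled diamond), beside ALB, APOB and KRT17 as markers of liver and squamous epithelium. The filled diamond is the highest point in each column, and the open diamond of HG-NC replicate 3 is raised for UGT1A8, GSTM1, ALB and APOB.

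Without HG-OE replicate 3, 21 of the tested members had an edgeR adjusted p under 0.05, 13 higher and 8 lower, and 5 were called against 6.24% of all genes tested in that fit. The share of all genes past the adjusted p in that fit was not computed, and with all libraries it was 51.8%. The 21 are therefore no result about the members. The called members were then CYP11A1 and SULT2B1, higher, and CYP2S1, CYP1A2 and CYP4F11, lower. Both higher ones had entered the test through HG-OE alone, so these calls support no count of higher members. Of the lower ones, CYP4F11 had 7, 16 and 14 counts in HG-OE, so its place in the test leaned on HG-NC, where it was higher. A filter of at least 10 counts in every library left it out. Of the 20 members past the adjusted p with all libraries, all 20 had the same direction and 19 remained past it, the exception being CYP26B1.

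Genes that serve these enzymes were taken from 5 lists of sensors, electron donors, cofactor supply, other metabolising enzymes and transporters. Of 96 genes measured, 74 were tested and 40 had an edgeR adjusted p under 0.05 (54.1%), 23 higher and 17 lower, near the share of all tested genes. Of the 74, 5 were called, each of them higher, against 5.82% of all tested genes called (3.69% higher). Of 11 tested sensors and regulators, 1 was higher and 4 were lower, so that 45.5% were past the adjusted p against 51.8% of all tested genes. The higher one, PPARA, rose by 0.67 on the log2 scale (SE 0.075, edgeR adjusted p = 5.83e-06). After the median of genes within 10 Mb was subtracted, PPARA stood at 0.37. NFE2L2, which encodes NRF2, fell by 0.57 on the log2 scale (SE 0.043, edgeR adjusted p = 1.63e-07), from 5594, 6118 and 6062 counts in HG-NC to 4545, 4142 and 4285 in HG-OE. Subtracting the median of genes within 10 Mb, -0.31 on chromosome 2, left -0.27. Its repressor KEAP1 had a log2 fold change of -0.022 (edgeR adjusted p = 0.655). AHR, the aryl hydrocarbon receptor, fell by 0.42 on the log2 scale (SE 0.054, edgeR adjusted p = 1.89e-05), and its target TIPARP fell by 0.76 (SE 0.073, edgeR adjusted p = 1.54e-06). NR1I2, which encodes the pregnane X receptor, was at 0 counts in 5 libraries and at 1 in HG-OE replicate 3.

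Of 8 tested electron donors and heme partners, 2 were higher and 2 were lower, so that 50% were past the adjusted p against 51.8% of all tested genes. POR rose by 0.47 and CYB5R3, the cytochrome b5 reductase, by 0.49 on the log2 scale (edgeR adjusted p = 3.90e-05 and 4.33e-06). CYB5A, cytochrome b5 itself, fell by 0.53 (edgeR adjusted p = 4.22e-07) and PGRMC2 by 0.12 (edgeR adjusted p = 0.0156). After the median of genes within 10 Mb was subtracted, CYB5A stood at 0.013, CYB5R3 at 0.17 and PGRMC2 at 0.26, so that the falls of CYB5A and PGRMC2 were no larger than those around them. The heme-binding partner PGRMC1 had a log2 fold change of 0.063 (edgeR adjusted p = 0.266).

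Of 13 genes of cofactor supply, 5 were higher and 2 were lower, so that 53.8% were past the adjusted p against 51.8% of all tested genes. SLC26A2, which brings sulfate into the cell, had 653, 718 and 634 counts in HG-NC and 1766, 1678 and 1652 in HG-OE, and rose by 1.22 on the log2 scale (SE 0.063, edgeR adjusted p = 5.79e-09). PAPSS2, which makes the active sulfate donor, rose by 0.34 (SE 0.047, edgeR adjusted p = 3.29e-05), and GSR, which regenerates glutathione, by 0.43 (SE 0.053, edgeR adjusted p = 1.36e-05). GSS, the last enzyme of glutathione synthesis, rose by 0.13 (edgeR adjusted p = 0.0144), whereas the cystine importer SLC7A11 fell by 0.57 (SE 0.046, edgeR adjusted p = 3.01e-07). UGP2, which makes UDP-glucose, fell by 0.14 (edgeR adjusted p = 0.0236), and SLC35B2, which carries the sulfate donor into the Golgi, had a log2 fold change of -0.097 (edgeR adjusted p = 0.130). Subtracting the median of genes within 10 Mb turned UGP2 to 0.14 and GSS to -0.057, and left SLC26A2 at 0.80, under 2-fold, and SLC7A11 at -0.16.

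Of 27 other metabolising enzymes tested, 10 were higher and 5 were lower, so that 55.6% were past the adjusted p against 51.8% of all tested genes. Of the 27, 4 were called, each of them higher, against 3.69% of all tested genes called higher. ALDH1A3, which makes retinoic acid from retinal, had 409, 478 and 477 counts in HG-NC and 1614, 1882 and 1860 in HG-OE, and rose by 1.85 on the log2 scale (SE 0.069, edgeR adjusted p = 3.74e-10). The aldo-keto reductase AKR1C3 rose by 1.15 (SE 0.11, edgeR adjusted p = 1.03e-06) and ALOX5AP, the partner of the leukotriene-forming lipoxygenase, by 1.19 (SE 0.10, edgeR adjusted p = 5.18e-07). AKR1C1 had 49, 60 and 44 counts in HG-NC and 155, 170 and 423 in HG-OE, and rose by 2.16, or by 1.55 without HG-OE replicate 3. Its near-identical paralog AKR1C2 had 295 counts in HG-OE replicate 3 and at most 3 elsewhere, so the split of reads between them is uncertain. The 3 genes with the most counts on this list, AKR1B1, EPHX1 and ADH5, fell by 0.23, 0.14 and 0.19 on the log2 scale (edgeR adjusted p = 2.66e-04, 0.0173 and 8.40e-04). After the median of genes within 10 Mb was subtracted, EPHX1 stood at -0.067 and ADH5 at 0.076. Per length, NNMT, which methylates nicotinamide, stood above ADH5 with a mean FPKM of 59.4 against 42.7, and it rose by 0.57 (SE 0.039, edgeR adjusted p = 6.99e-08). TPMT, another gene of this list, fell by 0.77 (SE 0.046, edgeR adjusted p = 1.94e-08).

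Of 15 transporters tested, 5 were higher and 4 were lower, so that 60% were past the adjusted p against 51.8% of all tested genes. ABCB1, the efflux pump P-glycoprotein, had 1915, 2050 and 2067 counts in HG-NC and 2943, 2806 and 2636 in HG-OE, and rose by 0.36 on the log2 scale (SE 0.048, edgeR adjusted p = 3.39e-05), or by 0.54 after the median of genes within 10 Mb was subtracted. The organic anion transporters SLCO4A1 and SLCO2A1 fell by 0.88 and 0.77 (SE 0.066 and 0.046, edgeR adjusted p = 1.65e-07 and 1.95e-08). SLCO4A1, the most abundant of the list by counts, had 10217 to 12434 counts in HG-NC and 6098 to 7368 in HG-OE, without overlap.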

How the data were processed

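HK-2 RNA-seq libraries, 3 HG-NC and 3 HG-OE, were grouped by their titles. The authors trimmed reads with FASTX-Toolkit, used HISAT2 to map them to GRCh38 and counted uniquely mapped reads. The deposited counts are whole numbers per gene without normalization, and the deposited FPKM values, which the authors computed per gene length and library size, are rounded to 2 decimals. Counter, annotation release and strand setting are not given in the sources used here. The methods name ComBat_seq and do not say whether it entered these counts. The labels name a total RNA kit beside the poly(A) kit of the methods.

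The test was that of edgeR 4.0.16 in R 4.3.3 (TMM, default low-count filter, quasi-likelihood test, Benjamini-Hochberg adjustment over 17142 genes), checked first on simulated data. Alternatives used DESeq2 1.42.0, limma 3.58.1 on log2(FPKM + 1) and log2(FPKM + 0.1) with a mean FPKM of at least 0.1, other filters, a replicate block, single libraries left out, and subtraction of the median of neighbours within 10 Mb. Positions came from GENCODE v44, promoters from RefSeq (GRCh38.p14). Totals of 25507595 to 29444841 counts set the precision, and intervals cover counting error only. With 3 libraries against 3, an exact permutation test could not go below p = 0.1, so none is given.

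Members, lists and tests were chosen with earlier results of these data known. Named with values were called members, the 3 most abundant of each family, members past an adjusted p of 0.05 with a mean of at least 100 counts, members at least 3 times higher, or lower by the same factor, in HG-OE replicate 3 than in the other HG-OE libraries, and from the 5 lists the called genes and the 3 with the most counts. Other members and other genes of the lists were named after their values were seen. Counts are uncertain where genes share exons or near-identical copies: the UGT1A genes, GSTM1, GSTM2 and GSTM4, SULT1A1, SULT1A2 and SULT1A3, GSTT2B, CYP21A2, and CYP3A7 with its readthrough. Promoter entries were not at hand for CYP24A1, CYP1B1, SULT4A1, SULT1A1 and 17 other members.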

Additional observations from a re-analysis of the deposited data

How the results depend on the processing

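The count of members past an adjusted p of 0.05 stayed within 1.5 times of 20 under every alternative that gives a count of it, ranging from 15 (limma) to 27 (no filter), and from 17 to 21 with single libraries left out. The higher members among them numbered 12, but 7 under limma on log2(FPKM + 0.1) or log2(FPKM + 1) and 19 without a filter. The 7 called members became 4 with at least 10 counts required in every library, 14 without a filter, 1 with limma at log2(FPKM + 0.1) and 0 at log2(FPKM + 1), where the pseudocount is large against these low levels and 15 members still had an adjusted p under 0.05. The 4 called higher became 2, 11, 0 and 0 under these, and the 3 called lower became 1 and 0 under limma. With single libraries left out, 5 to 8 members were called, 2 to 4 higher and 2 to 4 lower, and 2 higher without HG-OE replicate 3. Without a filter the added calls included members with counts mainly in HG-OE replicate 3. DESeq2 called 8 members, CYP2B6 and SULT1C4 among them, and gave CYP2U1, SULT1C2, SULT1A1, SULT2B1 and CYP17A1 adjusted p-values of 0.0715, 0.0669, 0.0605, 0.124 and 0.145. Subtracting the neighbours' median gave 9 calls.

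Directions reversed, among the members named by rule, for CYP24A1 (-0.044 after neighbour subtraction), CYP1B1 (0.25 after it, and from -0.18 to 0.026 with single libraries left out) and SULT4A1 (from -0.061 to 0.017 with single libraries left out), none of them past the threshold. MGST2, GSTA4 and GSTZ1, given by range, reversed with single libraries left out, and GSTM3 (0.055) and GSTZ1 (-0.079) after neighbour subtraction. Genes of the lists that were past the threshold and turned after it were CYB5A, PGRMC2, UGP2, GSS and ADH5 among those named.

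Replicate numbers are shared between the groups, but deviations of same-numbered libraries correlated at -0.0273, 0.0301 and -0.000993, so the numbers were not taken as pairs. With the replicate block, 20 members were past the adjusted p and 6 were called, 3 higher and 3 lower, and 41 list genes were past it.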
